A study of Mus musculus with 12 samples.

Results

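The genes described here are 59 nucleolar factors that synthesise and process ribosomal RNA (rRNA). They were taken from a fixed list of RNA polymerase I subunits, small nucleolar ribonucleoprotein (snoRNP) proteins and pre-rRNA processing factors, and the rule that picks them uses no measured value. The list itself was chosen with earlier results of these data known. All 59 were present in both deposited tables, among 10080 genes that the tables shared. The cells were clones of Ba/F3, a mouse lymphoid line whose growth depends on interleukin-3. R98S clones 11, 13 and 35 carried a human *RPL10* cDNA with the leukaemia-associated R98S change on a retroviral vector, and WT clones 28, 29 and 36 carried the unchanged human cDNA. In clones of both genotypes an shRNA knocked down the endogenous mouse *Rpl10*, every clone was grown from a single cell (so that p-values measure the spread between clones), and all cells received 100 µg/ml cycloheximide for 5 min before lysis. Each clone gave 1 library of ribosome-protected fragments (RPF, or footprints) and 1 matching mRNA library, so n = 3 clones per genotype in each assay. The question was how the expression and translation of these factors compared between R98S and WT clones.

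Ribosomal RNA is transcribed in the nucleolus by RNA polymerase I as a long precursor that holds the 18S, 5.8S and 28S rRNAs. Box C/D snoRNPs guide methylation of the precursor and box H/ACA snoRNPs guide its pseudouridylation, while the U3 snoRNP and the UTP complexes build the small-subunit (SSU) processome on its 5′ part. Other factors fold, trim and export the pre-40S and pre-60S particles, and RPL10 itself joins the 60S subunit late in that path. Growing cells express these genes together, and MYC, which binds the E-box motif CACGTG, is a known activator of many of them.

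The RPF libraries held 3477723 to 10883086 counted reads and 5 of the 6 mRNA libraries 20576796 to 23136595. The mRNA library of WT clone 28 held 6617457, so that 1 of its reads was worth 2.69 normalized counts. The values are read counts divided by the size factor of each library, separately in each table, so a ratio of RPF to mRNA has meaning only relative to other genes or clones. *Rpl10* was at 1449 to 2905 normalized mRNA counts in R98S clones and 2230.2 to 4501 in WT clones. Reads of the human cDNA could be counted as mouse *Rpl10*, so these values check neither the knock-down nor the transgene. The 4 pan-haematopoietic and interleukin-3 receptor markers exceeded 100 normalized mRNA counts in all 6 clones. Of the 9 B-lineage markers, *Cd79a* and *Cd79b* did so too, while the other 7, *Pax5* among them, stayed under 10 in all 6. The mast cell gene *Cpa3* ranged from 253 to 787 in R98S and from 13.4 to 174 in WT clones. *Ms4a2*, from the same list, overlapped between genotypes, at 18.0 to 168 in R98S and 32.2 to 56.4 in WT clones. The summed mRNA level of the 4 mast cell markers was 271 to 957 in R98S and 69.8 to 206 in WT clones, with *Kit* and *Fcer1a* under 10 in all 6. The sum of the B-lineage list was 1350.5 to 1671 and 893 to 1155, and that of the pan-haematopoietic list 99455 to 120902 and 46935 to 92744. The latter sum is mostly *Csf2rb* and *Csf2rb2*, while *Ptprc* was at 3802 to 5001 in R98S and 4871 to 11845 in WT clones and *Il3ra* at 560.2 to 859 and 719 to 1112. The part of these differences in the results was not tested. In such bulk libraries fewer cells with an mRNA and less mRNA per cell cannot be told apart.

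Few of the 59 genes changed between genotypes. In mRNA 3 rose in R98S clones and none fell at an adjusted p under 0.1 (limma). Those 3, *Polr1e*, *Ebna1bp2* and *Utp14a*, are 5.08% of the members, beside 3.03% of all 11344 tested genes that rose and 3.91% that fell. At an unadjusted p under 0.05 (limma) no member was lower in mRNA, against 9.10% of all tested genes. At that cutoff 6 members were higher (10.2%, against 8.85% of all genes). In RPF *Polr1e* and *Ebna1bp2* rose, 3.39% of the members, beside 3.13% of 9580 tested genes that rose. None fell in RPF, where 4.62% of all genes did. At an unadjusted p under 0.05 (limma) none of the 59 was lower in RPF, against 10.7% of all genes. There 7 members were higher (11.9%, against 9.62% of all genes). Both shares of members that rose at an adjusted p under 0.1 are close to the background. The members' median log2 fold change was 0.21 in mRNA against 0.01 over all tested genes, with 42 of 59 above 0 (71.2%, against 51.4%). In RPF it was 0.05 against 0.01, with 35 of 59 above 0 (59.3%, against 51.2%). The mRNA median leaned on WT clone 29. Without that clone the members' median was 0.05 in mRNA and -0.10 in RPF, and the members above 0 numbered 35 and 20.

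The clearest pattern among these genes lay between WT clones. On the scale of log2(normalized count + 1), the median deviation of the 59 genes from their 6-clone mean was -0.40 in mRNA and -0.43 in RPF of WT clone 29. Over all tested genes that clone's median deviation was 0.00501 in mRNA and 0.00171 in RPF. WT clone 29 was the lowest of the 6 clones for 40 of 59 members in mRNA and 43 in RPF, which is 67.8% and 72.9%. It was lowest for 16.9% and 20.6% of all tested genes. For 34 members it was the lowest in both assays, among them all 4 box C/D and U3 proteins and all 4 box H/ACA proteins. A member stood in WT clone 29 at a median of 71.2% of the mean of the other 5 clones in mRNA and 69.1% in RPF. The lowest was *Rrp12*, a factor of pre-40S export, at 37.6% in mRNA and 30.6% in RPF. Only *Polr1c*, *Nob1* and *Rrp1b* lay above their 6-clone mean there in mRNA, and *Polr1d*, *Npm1*, *Utp15* and *Mphosph10* in RPF. With 1 culture per clone, a property of the clone and one of its culture cannot be told apart.

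**Figure D1:**
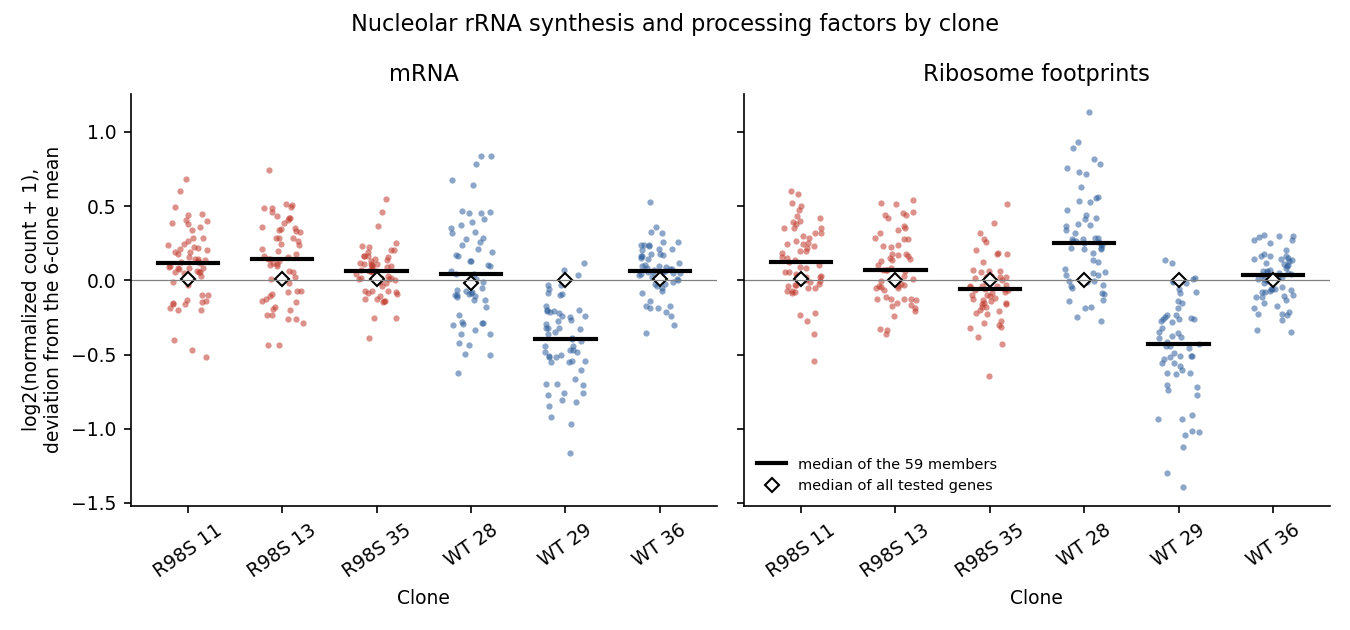
Deviation of each of the 59 members (points) from its mean over 6 clones, on the scale of log2(normalized count + 1), by clone in mRNA (left) and ribosome footprints (right), with R98S clones in red and WT clones in blue. Bars are the members' medians and diamonds the medians of all tested genes; the bar of WT 29 lies at -0.40 in mRNA and -0.43 in footprints while its diamonds lie near 0.

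The R98S clones lay close together. Their median deviations in mRNA were 0.11, 0.15 and 0.06 in clones 11, 13 and 35, and in RPF 0.12, 0.07 and -0.06. WT clone 36 was at 0.06 in mRNA and 0.03 in RPF. The SD over the 3 WT clones of a member's log2 level had a median of 0.34 in mRNA and 0.36 in RPF, against 0.14 and 0.18 over the R98S clones. Over all tested genes the medians were 0.29 and 0.27 in WT and 0.22 and 0.25 in R98S clones.

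WT clone 28 behaved differently in the 2 assays. Its members' median deviation was 0.04 in mRNA and 0.25 in RPF, and it was the highest of the 6 clones for 31 of 59 members in RPF (52.5%, against 20.2% of all tested genes). The excess went with coding length. Its RPF deviation had a Spearman correlation of 0.67 with coding length over the 59 members, and 0.12 over 9300 tested genes. Among the other 5 clones the correlation over members in RPF lay between -0.18 and -0.14. These are descriptions across genes that share a library, and genes are not independent replicates. The 20 members with the longest coding sequence, from 2250 bases upwards, had a median RPF deviation of 0.50 in WT clone 28, and the 20 shortest, up to 1410 bases, one of 0.03. In mRNA the order was the opposite, at 0.03 for the 20 longest and 0.29 for the 20 shortest. This was also the shallow mRNA library, and the part of its depth in these values was not tested.

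The genotypes' values did not overlap, with all 3 R98S clones above all 3 WT clones, for 10 members in mRNA (16.9%, against 11.9% of all tested genes). They were *Polr1e*, *Dkc1*, *Ncl*, *Npm1*, *Utp18*, *Utp14a*, *Nol6*, *Noc2l*, *Ebna1bp2* and *Nol9*. Of the exon bases of *Noc2l* 20.9% are shared with a gene on the opposite strand. *Nob1* and *Rrp1b* lay lower in all R98S clones, 3.39% of the members against 11.6% of all genes. In RPF 5 members lay higher without overlap (*Polr1e*, *Utp6*, *Utp18*, *Noc2l* and *Ebna1bp2*) and 5 lower (*Ubtf*, *Npm1*, *Wdr43*, *Rrp1b* and *Brix1*), each 8.47% of the members, beside 12.5% and 12.8% of all genes. Genes listed here by this criterion alone were named after their values were seen.

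Promoter sequence was read for the members from RefSeq windows of 300 bases (GRCm38.p6, 250 bases before to 50 after each annotated start). Windows were at hand for 50 of the 59 members. The E-box CACGTG, which reads the same on both strands, occurred in the windows of 10 members (20%), against 8.09% of the 27025 symbols with a window. A symbol counted if any of its windows held the motif. Those symbols are not limited to genes expressed in these cells, as the members are, and the share over expressed genes was not taken. The 10 were *Rrn3*, *Nol11*, *Utp18*, *Imp4* and *Nop2*, with the motif before the start, and *Wdr43*, *Utp20*, *Tsr1*, *Ltv1* and *Pes1*, with the motif after it. Members with the motif had a median deviation in WT clone 29 of -0.23 in mRNA and -0.26 in RPF, and the 40 members with a window but no motif -0.41 and -0.44. A match of letters is not a measured binding site. The upstream motifs that lie clear of annotated exons are shown 5′ to 3′ on the gene's strand with the E-box in capitals, so that the counted motif can be seen in its context. They are followed by upstream stretches of the 3 members that changed, whose windows hold no CACGTG.
Rrn3 (chr16:13780454-13780519, plus strand): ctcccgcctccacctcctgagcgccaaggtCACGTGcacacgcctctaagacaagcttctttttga
Rrn3 (chr16:13780621-13780686, plus strand): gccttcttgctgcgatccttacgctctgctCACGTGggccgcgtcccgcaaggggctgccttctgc
Nol11 (chr11:107189389-107189454, minus strand): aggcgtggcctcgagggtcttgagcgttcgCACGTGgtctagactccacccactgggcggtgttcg
Utp18 (chr11:93885767-93885816, minus strand): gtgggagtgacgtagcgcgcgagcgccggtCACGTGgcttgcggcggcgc
Nop2 (chr6:125131793-125131858, plus strand): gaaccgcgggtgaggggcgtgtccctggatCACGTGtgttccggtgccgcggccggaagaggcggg
Polr1e (chr4:45018503-45018582, plus strand): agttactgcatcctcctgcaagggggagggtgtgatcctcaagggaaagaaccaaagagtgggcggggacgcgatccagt
Ebna1bp2 (chr4:118620578-118620657, plus strand): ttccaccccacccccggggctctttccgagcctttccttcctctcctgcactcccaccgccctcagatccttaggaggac
Utp14a (chrX:48256782-48256861, plus strand): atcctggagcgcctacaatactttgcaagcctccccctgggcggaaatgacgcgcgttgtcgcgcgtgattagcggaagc
In the first *Rrn3* line the E-box starts 215 bases before the start and in the second 48 bases before it. In *Nol11*, *Utp18* and *Nop2* it starts 43, 20 and 60 bases before the start.

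Among the genes of RNA polymerase I and its initiation factors, *Polr1e* rose and the other 6 did not pass the test in either assay. *Polr1e*, which encodes the PAF53 subunit, lies on chromosome 4, 45018583 to 45036565 (mm10). R98S clones 11, 13 and 35 held 1241, 1155 and 1199 normalized counts of its mRNA, and WT clones 28, 29 and 36 held 604, 454 and 639. The R98S clones lay close together and far above every WT clone. The means were 1198 ± 43.0 and 566 ± 98.4 (SD, n = 3) (log2 fold change 1.10, standard error 0.19, adjusted p = 0.0134, limma). Its RPF showed the same order, with 545, 494 and 552 in R98S and 353, 205 and 306 in WT clones (log2 fold change 0.91, standard error 0.22, adjusted p = 0.0464, limma). The mRNA adjusted p stayed under 0.1 whichever clone was left out, at 0.0152 to 0.0703 (limma), while in RPF it reached 0.152 and the call was lost without any 1 of R98S clones 11 and 13 or WT clone 36.

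*Polr1a*, the gene of the largest subunit (chromosome 6, 71909053 to 71984935), showed how far WT clones differed. Its RPF was at 851, 862 and 821 in R98S clones and at 1961, 439 and 980.4 in WT clones, so WT clones 28 and 29 lay above and below all R98S clones (log2 fold change -0.16, standard error 0.41, adjusted p = 0.859, limma). Its mRNA, at 2070.4, 2047 and 1562 in R98S and 1625, 1185 and 2066 in WT clones, overlapped too (log2 fold change 0.24, standard error 0.23, adjusted p = 0.629, limma). *Polr1b*, another of the large subunits, had the lowest RPF change of all members (log2 fold change -0.37, standard error 0.31, adjusted p = 0.534, limma), and WT clone 28 was the highest clone in both assays, with 2516 in mRNA and 776 in RPF. Over the 7 genes the mRNA changes ran from -0.38 to 1.10 with 2 of 7 above 0 and a median of -0.13, the only group whose median lay under that of all tested genes in mRNA. The remaining genes, *Polr1c* and *Polr1d* (subunits shared with RNA polymerase III), the initiation factor *Rrn3* and the promoter-binding *Ubtf*, overlapped between genotypes in mRNA.

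No gene of the snoRNP proteins passed the test, and for all 8 the lowest value in either assay was that of WT clone 29. The 4 box C/D and U3 genes had positive changes in both assays, 0.17 to 0.31 in mRNA and 0.11 to 0.44 in RPF. *Nop56*, a core protein of the box C/D particle, was at 3268, 3945 and 2935 in R98S and 3036, 1869 and 2668 in WT clones in RPF, where WT clone 29 was lowest and WT clone 28 lay among the R98S clones. The methyltransferase gene *Fbl* was at 1914, 1641 and 1745 in R98S and 1845, 1130.0 and 1577 in WT clones in mRNA, again with WT clone 29 lowest and the rest overlapping. The 4 box H/ACA genes had changes of -0.32 to 0.35 in mRNA and 0.09 to 0.48 in RPF. *Gar1* had 1 of the lowest mRNA changes (log2 fold change -0.32, standard error 0.31, adjusted p = 0.636, limma), and its values of 1548, 988 and 1121 in R98S and 2309, 967 and 1502 in WT clones place WT clone 28 at the top and WT clone 29 at the bottom. *Dkc1*, the pseudouridine synthase, did not overlap in mRNA, at 5759, 5714 and 6044 in R98S and 4716, 3601 and 5605 in WT clones, but the gap between R98S clone 13 and WT clone 36 was small.

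In the 3 abundant nucleolar phosphoproteins mRNA and footprints pointed in opposite directions, with 3 of 3 changes above 0 in mRNA and 3 of 3 below 0 in RPF, none of which passed the test. *Ncl*, which encodes nucleolin (chromosome 1, 86344719 to 86359400), was at 62213, 55140.3 and 39411 normalized mRNA counts in R98S and 27442, 23795 and 37938 in WT clones. All R98S clones lay above all WT clones, though R98S clone 35 and WT clone 36 were nearly level (log2 fold change 0.82, standard error 0.25, adjusted p = 0.110, limma). It passed the threshold in 3 of 7 other fits, among them those on recovered reads, at an adjusted p of 0.0942 with edgeR and 0.0167 with DESeq2. The range over the 7 was 0.0167 to 0.185, and it also passed without R98S clone 35 or WT clone 36. Its RPF was at 8807, 6890.1 and 6593 in R98S and 11235, 6455 and 6975 in WT clones, where WT clone 28 was highest and the others mixed (log2 fold change -0.11, standard error 0.24, adjusted p = 0.829, limma). *Npm1*, nucleophosmin, was at 47515, 55434 and 48096 in R98S and 46097, 44759.6 and 45537 in WT clones in mRNA, and at 4953, 4914 and 4531 and 5115, 5506 and 5461 in RPF. Its genotypes did not overlap in either assay, with R98S higher in mRNA (log2 fold change 0.14, standard error 0.18, adjusted p = 0.731, limma) and lower in RPF (log2 fold change -0.16, standard error 0.17, adjusted p = 0.632, limma). The genome holds 9 other loci that match at least 50% of the *Npm1* coding sequence at 90% identity or more, and 1 each for *Ncl* and *Nolc1*, and the authors kept only reads with a mapping quality of at least 10. How many reads of these genes that filter removed was not tested. *Nolc1*, a chaperone of snoRNPs, had log2 fold changes of 0.27 in mRNA and -0.36 in RPF (adjusted p = 0.496 and 0.493, limma).

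**Figure D2:**
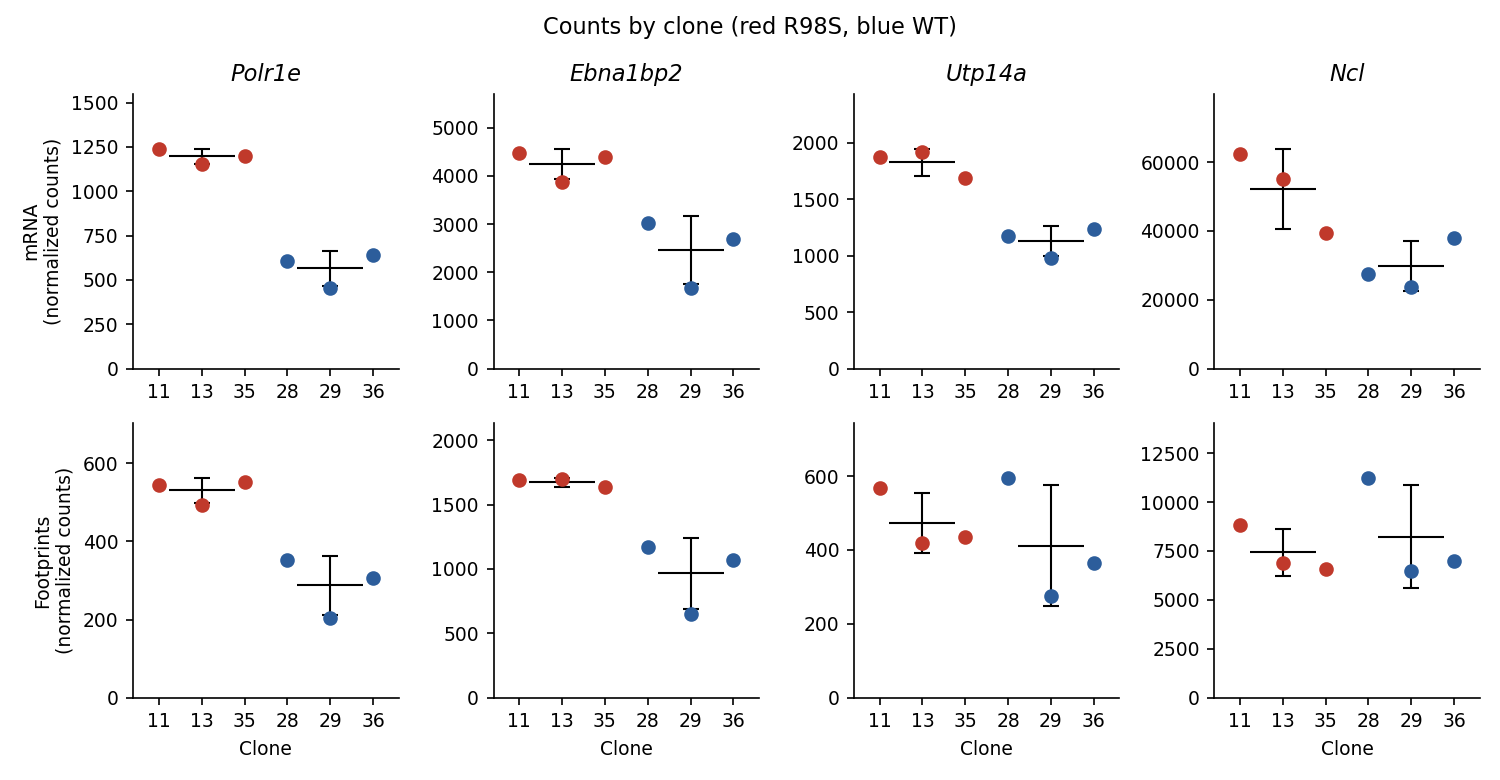
Normalized counts of 4 members by clone (x axis, clone number), with mRNA in the upper row and footprints in the lower, R98S clones in red and WT clones in blue, and mean ± SD of the 3 clones of a genotype in black. *Polr1e* and *Ebna1bp2* are higher in every R98S clone in both assays, *Utp14a* and *Ncl* only in mRNA.

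In the UTP complexes no gene passed the test. The 5 UTP-A genes, which bind the precursor first, had changes of -0.17 to 0.27 in mRNA and -0.23 to 0.07 in RPF, and the 5 UTP-B genes of 0.02 to 0.38 and -0.21 to 0.40. *Heatr1* (UTP10; chromosome 13, 12395027 to 12440289) was at 2405, 2901 and 2342 in R98S and 2169.8, 1579 and 2726 in WT clones in mRNA (log2 fold change 0.27, standard error 0.22, adjusted p = 0.572, limma). In RPF it was at 1859.7, 1877 and 1542 in R98S clones, and WT clones 28, 29 and 36 were at 2896, 829 and 1934 (log2 fold change 0.07, standard error 0.36, adjusted p = 0.933, limma). The R98S values thus lay inside the WT range. The sign of the RPF change turned in 3 of 7 other fits, to -0.09 with edgeR and -0.10 with DESeq2 on recovered reads and to -0.0071 with library weights. *Wdr43*, a UTP-A protein, was among the 4 lowest members in RPF, at 1798, 1609 and 1857 in R98S and 2212, 1883 and 2086 in WT clones (log2 fold change -0.23, standard error 0.17, adjusted p = 0.467, limma). The genotypes did not overlap, but R98S clone 35 and WT clone 29 were nearly level. *Pwp2* of UTP-B repeated the WT pattern in RPF, with 770.0, 265 and 402 in WT clones 28, 29 and 36 around 347, 394 and 386 in R98S clones.

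Of the 13 other SSU processome factors *Utp14a* rose in mRNA and none passed in RPF. *Utp14a* (chromosome X, 48256862 to 48282453) was at 1875, 1919 and 1686 in R98S and 1174, 983 and 1236 in WT clones in mRNA, so that all R98S clones lay well above all WT clones (log2 fold change 0.70, standard error 0.17, adjusted p = 0.0542, limma). In RPF the clones overlapped, at 566, 419.9 and 435 and 595, 276 and 365, with WT clone 28 the highest of all (log2 fold change 0.26, standard error 0.27, adjusted p = 0.629, limma). Its mRNA call was lost when any 1 of R98S clones 11 and 13 or WT clones 29 and 36 was left out, with an adjusted p of up to 0.221 (limma). Of its exon bases 11.5% are shared with an antisense gene, and whether counting used strand is not given in the sources used here. *Nol6* (UTP22) had 1 of the 4 highest RPF changes (log2 fold change 0.80, standard error 0.29, adjusted p = 0.156, limma), from 1125, 1257 and 1048 in R98S clones against 1048, 397 and 679 in WT clones, where WT clone 28 was level with R98S clone 35. *Imp3*, which pairs U3 with the precursor, had the lowest mRNA change (log2 fold change -0.45, standard error 0.28, adjusted p = 0.454, limma), with WT clone 28 highest at 3096. *Nat10*, the acetyltransferase of 18S rRNA (chromosome 2, 103721256 to 103761270), was at 1974, 2409 and 1547 in R98S and 1899, 999 and 1682 in WT clones in mRNA (log2 fold change 0.40, standard error 0.27, adjusted p = 0.476, limma). In RPF it was at 710.5, 789 and 566 and 1199, 427 and 701, WT clones 28 and 29 again at the extremes (log2 fold change -0.06, standard error 0.32, adjusted p = 0.935, limma).

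The 4 late 40S factors, which finish and export the small subunit, held no gene that passed, with changes of -0.14 to 0.59 in mRNA and -0.15 to 0.42 in RPF. *Nob1*, the endonuclease that makes the 3′ end of 18S rRNA, was the steadiest, at 1738, 1766 and 1811 in R98S and 1993, 1949 and 1925 in WT clones in mRNA. *Rrp12* varied most, at 2123, 2171 and 1429 in R98S and 2683, 615 and 1656 in WT clones in RPF, with WT clone 28 highest and WT clone 29 lowest.

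Among the 14 factors of 60S assembly *Ebna1bp2* rose in both assays. *Ebna1bp2* (EBP2; chromosome 4, 118620799 to 118627776), which acts in early 60S assembly, was at 4479, 3882 and 4384 in R98S and 3016, 1678 and 2691 in WT clones in mRNA (log2 fold change 0.83, standard error 0.23, adjusted p = 0.0811, limma). Its RPF was at 1690.1, 1695 and 1632 and 1173, 653 and 1069 (log2 fold change 0.84, standard error 0.22, adjusted p = 0.0642, limma). The R98S clones lay close together and WT clone 29 far under the rest. Both calls were lost without several single clones. Without WT clone 29 its log2 fold change was 0.57 in mRNA (adjusted p = 0.139, limma) and 0.58 in RPF (adjusted p = 0.101, limma), and the call was also lost in mRNA without any 1 of R98S clones 11, 13 and 35 or WT clone 36, and in RPF without any 1 of R98S clones 11 and 13 or WT clone 36. *Bop1*, of the complex with *Pes1* and *Wdr12* that matures 28S and 5.8S rRNA, had 1 of the 4 highest RPF changes (log2 fold change 0.64, standard error 0.35, adjusted p = 0.332, limma), but its WT values of 1656, 555 and 1411 reached up to the R98S values of 1826, 1960.3 and 1387. *Rrp1b* was among the 4 lowest members in both assays. In mRNA R98S clones were at 2125, 2005 and 2448 and WT clones at 2876, 2504 and 2829.7 (log2 fold change -0.32, standard error 0.16, adjusted p = 0.340, limma), and its RPF change was -0.33 (adjusted p = 0.352, limma).

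**Figure D3:**
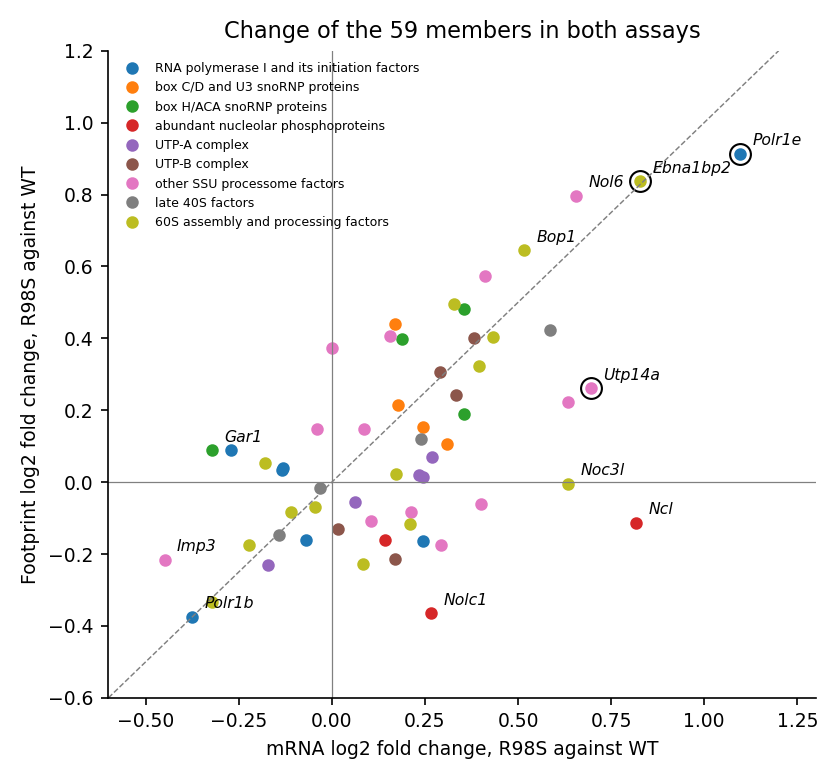
Log2 fold change of the 59 members between R98S and WT clones in mRNA (x axis) and ribosome footprints (y axis), each point a gene coloured by role, with the line of equal change dashed. Circled points passed an adjusted p of 0.1 (limma) in either assay; *Ncl* lies at 0.82 in mRNA and -0.11 in footprints.

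*Polr1e* and *Ebna1bp2* lie on chromosome 4, as do *Nol6*, *Noc2l* and *Nol9*. The median deviation of all 674 tested chromosome 4 genes in mRNA was 0.09, 0.04 and 0.13 in R98S clones 11, 13 and 35 and -0.14, -0.09 and -0.04 in WT clones 28, 29 and 36. All R98S clones thus lay above all WT clones for the chromosome as a whole, by a median log2 fold change of 0.18 in mRNA and 0.21 in RPF. Such shifts were not limited to chromosome 4. Chromosome 7 showed the same order of genotypes, at 0.19 in mRNA and 0.20 in RPF. Chromosome 8, which holds *Nob1* and *Nip7*, showed the opposite order, at -0.22 and -0.18. Chromosome 3, which holds *Gar1*, stood at -0.29 and -0.31, though R98S clone 11 lay above WT clone 28 there in mRNA. The 5 members on chromosome 4 had medians of 0.66 and 0.80. With each chromosome's median removed in each clone, *Polr1e* still passed in both assays. Its mRNA log2 fold change was then 0.92 (adjusted p = 0.0257, limma), and over the 7 other fits its RPF change went down to 0.73. With the medians removed *Ebna1bp2* had a log2 fold change of 0.65 in mRNA (adjusted p = 0.173, limma) and 0.65 in RPF (adjusted p = 0.135, limma). With the chromosome medians removed, the mRNA log2 fold change of *Gar1* was -0.06. That of *Nob1* ranged from -0.15 to 0.07 over the 7 other fits. The part of these chromosome-wide shifts in the changes of single genes was not tested further.

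Translational efficiency (TE), the RPF/mRNA ratio of a clone, changed for none of the 59 members at an adjusted p under 0.1 (limma), and for 0.0221% of 9043 tested genes. At an unadjusted p under 0.05 (limma) 2 members were lower and none higher (3.39% of the members, against 7.85% of all genes). No member was called by edgeR or DESeq2 on recovered reads either, while limma with clone weights called *Ncl* and *Nolc1* lower and *Imp4* higher. That weighted fit called 796 of the 9043 tested genes, a larger share than among the members. The paper reports genes of rRNA transcription and ribosome biogenesis, only a few of each, as over-represented among those with reduced TE in R98S cells. Its TE calls came from the Babel package on footprints and/or polysome-bound RNA. They thus differ from the tests here in method and partly in data. The median log2 TE change of the members was -0.06, against -0.00143 over all tested genes. Of the 59 members 34 lay below 0, and 42.4% lay above 0, against 49.8% of all tested genes. *Ncl* had the lowest TE change, with ratios of 0.142, 0.125 and 0.167 in R98S and 0.409, 0.271 and 0.184 in WT clones (log2 fold change -0.93, standard error 0.29, adjusted p = 0.629, limma). *Nolc1* had ratios of 0.386, 0.355 and 0.404 and 0.843, 0.534 and 0.457 (log2 fold change -0.63, standard error 0.24, adjusted p = 0.629, limma). In both genes R98S clones lay below every WT clone, and WT clone 28 lay far above the others. *Noc3l*, of 60S assembly, and *Nop14*, of the SSU processome, completed the lowest 4, with log2 TE changes of -0.64 and -0.47. Their WT clones 28, 29 and 36 stood at 0.655, 0.301 and 0.253 and at 0.859, 0.392 and 0.375, with WT clone 28 far above the other 2. The 4 highest were *Gar1*, *Emg1*, *Polr1c* and *Nop56*, at 0.41, 0.37, 0.36 and 0.27. Of these only *Nop56* did not overlap, with 0.562, 0.635 and 0.499 in R98S and 0.423, 0.487 and 0.493 in WT clones.

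TE values did not overlap between genotypes for 9 members, of which 8 were lower in R98S clones (*Ncl*, *Npm1*, *Nolc1*, *Wdr75*, *Pwp2*, *Nat10*, *Pes1* and *Nop2*) and 1 was higher, 13.6% and 1.69% of the members. Over all genes the shares were 7.33% and 7.46%. *Nat10* was among them, with ratios of 0.360, 0.327 and 0.366 in R98S and 0.631, 0.427 and 0.417 in WT clones (log2 fold change -0.46, standard error 0.21, adjusted p = 0.635, limma). For *Heatr1* and *Polr1a* the ratios overlapped, at 0.773, 0.647 and 0.658 against 1.33, 0.525 and 0.710 and at 0.411, 0.421 and 0.526 against 1.21, 0.371 and 0.474, with WT clone 28 highest in both and WT clone 29 lowest. The log2 TE changes were -0.20 and -0.41 (adjusted p = 0.860 and 0.754, limma). *Polr1e* and *Ebna1bp2*, which rose in both assays, had TE changes of -0.18 and 0.01 (standard errors 0.18 and 0.17), and *Utp14a* one of -0.43 (standard error 0.26). Without WT clone 28 the members' median TE change was 0.03, with 32 of 59 above 0.

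The clone with high ratios was the clone with a length trend. Over the 59 members the log2 TE deviation of WT clone 28 had a Spearman correlation of 0.67 with coding length (0.38 over 8788 genes), and that of R98S clone 13 one of -0.59 (-0.37). WT clone 36 had -0.49 and the other 3 clones between -0.27 and -0.09. These values are across genes of shared libraries. Deviations are taken from the mean of the same 6 clones, so a trend in 1 clone shows in part as the opposite trend in the others. The highest deviation in WT clone 28 was that of *Polr1a* (coding length 5159 bases), and the long *Heatr1* (6429 bases) and *Utp20* (8390 bases) were high as well.

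**Figure D4:**
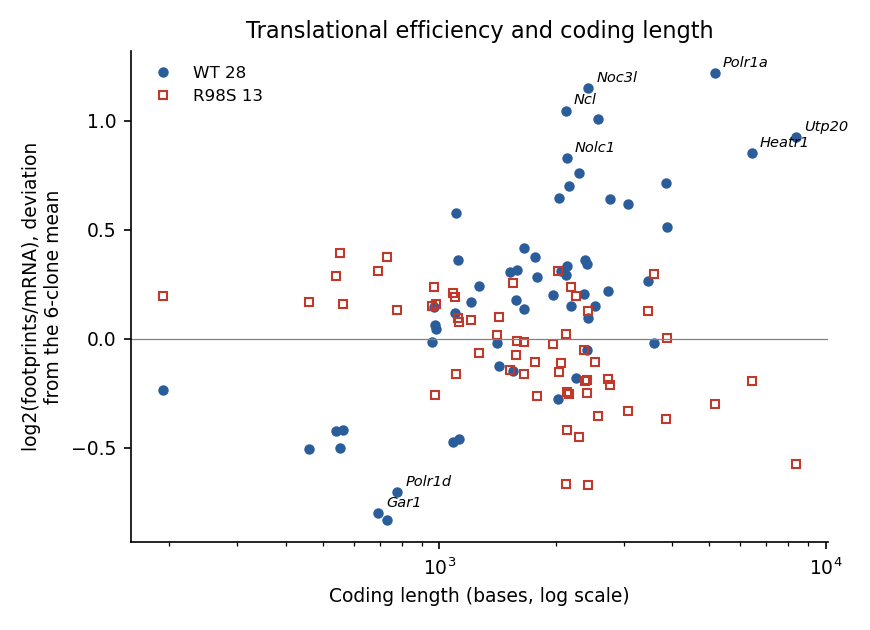
Deviation of the log2 ratio of footprints to mRNA from its 6-clone mean (y axis) against coding length in bases (x axis, log scale) for the 59 members in WT clone 28 (filled circles) and R98S clone 13 (open squares). Points of WT 28 are higher at greater length (Spearman 0.67) and those of R98S 13 lower (-0.59).

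As levels, the members ranked high. RPF per kb of counted coding sequence (without the first 15 and last 5 codons) had a median of 413 normalized counts over the members in WT clones, against 155 over 9743 genes, and 55 of 59 lay above that median. In mRNA per kb of exon the medians were 457 and 166, again with 55 of 59 above. The RPF levels of the members ran from 133 to 5878 per kb. *Npm1* was highest at 5878 ± 235 (SD, n = 3), followed by *Nop10* at 4381 ± 1305 and *Ncl* at 3989 ± 1273, which did not differ beyond their spread. The *Nop10* level rests on only 132 counted coding bases. *Nol9*, a polynucleotide kinase of 60S maturation, was lowest at 133 ± 37.1. *Noc3l* at 139 ± 48.6, *Utp20* at 142 ± 67.3 and *Polr1b* at 152 ± 67.6 lay within its spread.

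Levels differed within a role, in UTP-B the least. The highest and lowest of a role are named by their means, and some did not differ from the next gene beyond their spread. Examples are *Utp6* beside *Tbl3* (319 ± 120) and *Fbl* beside *Rrp9* (343 ± 114). Of the RNA polymerase I group *Polr1d* was highest in RPF per kb at 641 ± 86.8 and *Polr1b* lowest at 152 ± 67.6. Of the box C/D and U3 group *Nop56* was highest at 1284 ± 304 and *Fbl* lowest at 326 ± 79.5, and both belong to the same particle. *Gar1*, at 692 ± 167, was the lowest of the box H/ACA group, whose highest was *Nop10*. *Nolc1*, at 1905 ± 886, was the lowest phosphoprotein gene. The UTP-A group ran from *Wdr43* at 1000.3 ± 80.6 to *Wdr75* at 277 ± 62.2, and the UTP-B group from *Utp6* at 328 ± 26.3 to *Pwp2* at 178 ± 96.8. The other UTP-A genes lay within a narrow range of each other, while *Wdr43* stood apart by more than its SD. The other SSU factors ran from *Imp3* at 2057 ± 486 to *Utp20* at 142 ± 67.3, the late 40S factors from *Nob1* at 748 ± 108 to *Tsr1* at 219 ± 27.9, and the 60S factors from *Nip7* at 1653 ± 234 down to *Nol9*. Exon overlap with an opposite-strand gene covers 32.3% of *Tsr1* and 37.3% of *Tbl3*, and reads of the 2 strands may not be told apart there. *Nop10*, *Fbl*, *Imp3*, *Nip7*, *Dkc1*, *Nhp2* and *Wdr12* each have 1 other locus in the genome that matches at the limits given for *Npm1*. *Pes1* has 2 such loci and *Rrs1* has 3. How many of their reads the mapping-quality filter removed was not tested.

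**Figure D5:**
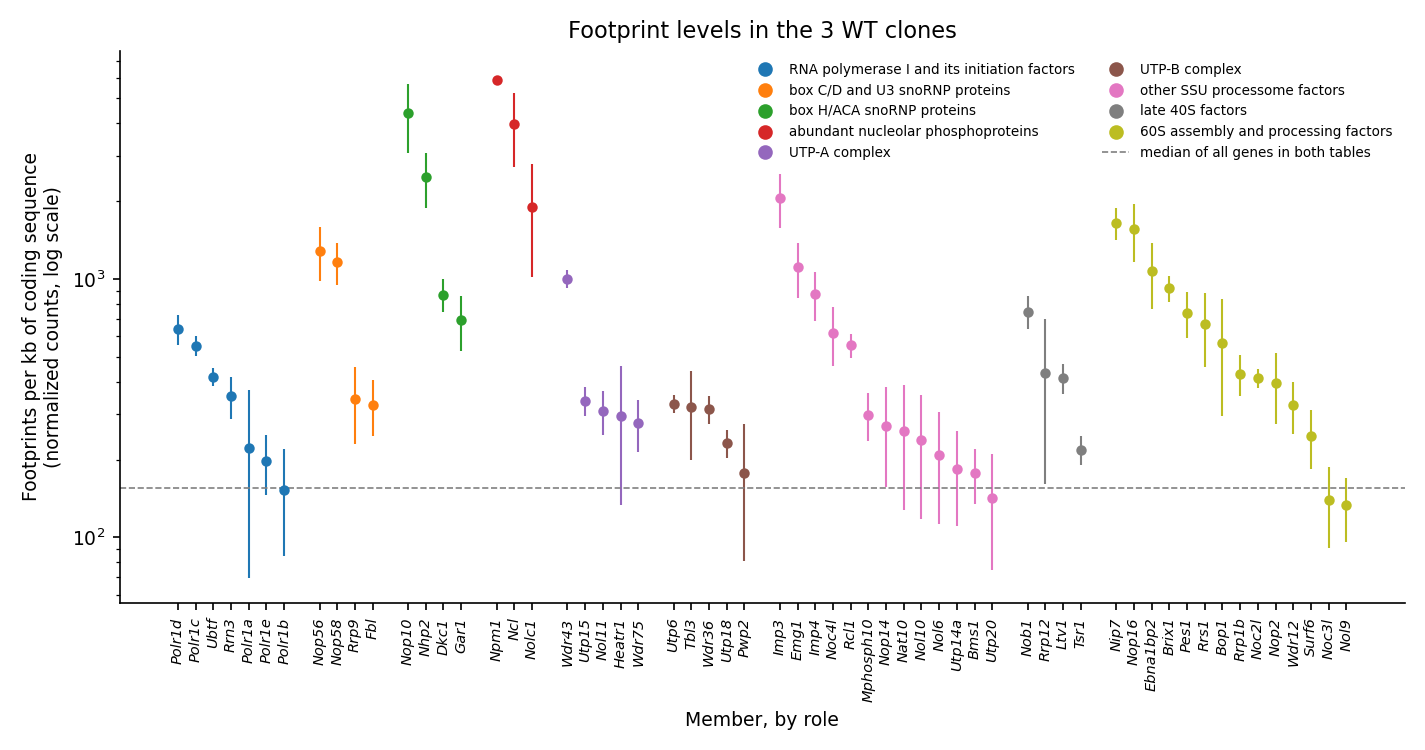
Footprints per kb of counted coding sequence (y axis, normalized counts, log scale) of each member (x axis, grouped and coloured by role) as mean ± SD of the 3 WT clones. Most members lie above the dashed line, the median of all genes at 155, and levels differ within roles, least in UTP-B.

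Other genes of the pathway were drawn from a list of 54 further nucleolar and ribosome assembly factors, of which 52 were tested. In mRNA 3 rose (5.77%, against 3.03% of all tested genes) and none fell (against 3.91%). In RPF 2 rose (3.85%, against 3.13%) and none fell (against 4.62%). In mRNA *Nol12* changed by 0.95 (adjusted p = 0.0454, limma) and *Utp11l* by 0.73 (adjusted p = 0.0393, limma). *Tex10* changed by 0.58 (adjusted p = 0.0996, limma). In RPF *Nol12* changed by 0.72 (adjusted p = 0.0989, limma) and *Fcf1* by 0.67 (adjusted p = 0.0749, limma). The median changes of the 52 were 0.19 in mRNA, 0.11 in RPF and -0.12 in TE. None changed in TE.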

How the data were processed

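The data are 2 tables of gene counts from Ba/F3 clones, 1 of footprints and 1 of mRNA, each with 6 libraries. The authors removed rRNA and tRNA reads from the footprints with Bowtie2, aligned reads to mm10 (GRCm38) with TopHat2 2.0.11 and kept primary alignments with a mapping quality of at least 10. They counted mRNA reads on exons and footprints on coding sequence without the first 15 and last 5 codons, merging 3 technical replicates per clone in the footprints. Whether counting used strand is not given in the sources used here. The deposited signal values are those counts divided by DESeq2 size factors, and in all 12 libraries every value came out as a whole number of reads (tolerance 1e-06 of the read count).

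From these values log2(value + 1) was tested with limma 3.58.1 (R 4.3.3, with trend) over all genes with a mean of at least 10 normalized counts, with Benjamini-Hochberg adjustment and a threshold of 0.1. TE was tested on the difference of a clone's log2 values, over genes that reached 10 normalized counts in each of the 12 libraries, so each footprint library was paired with the mRNA library of the same clone. The pairing comes from the clone numbers in the labels, and across genes the 2 assays' deviations from the genotype mean correlated in every clone (mean r 0.519, lowest 0.218 in WT clone 28). Count tests used edgeR 4.0.16 and DESeq2 1.42.0 on the recovered reads. No exact test of 3 clones against 3 can reach a two-sided p under 0.1. Fits were checked on simulated data. Fold changes on this scale are understated for low genes.

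Levels per kb used GENCODE M21 lengths, namely the union of a gene's exons for mRNA and of its coding exons for footprints. Copies of the members' coding sequences were sought in the genome with minimap2 2.31-r1302. The members and the lists were chosen with earlier results of these data known. Members named with their full statistics are 3 members set by name because a table of the study lists them, a choice made on these samples (*Heatr1*, *Nat10* and *Polr1a*), those past the threshold, the 4 with the highest and the 4 with the lowest log2 fold change in each of mRNA, RPF and TE, and the highest and lowest of each role in RPF per kb of coding sequence in WT clones.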

Additional observations from a re-analysis of the deposited data

How the results depend on the processing

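A pseudocount of 5, no filter on low values and TMM scaling left the counts of members called in mRNA and RPF as they were. With DESeq2 on recovered reads 578 genes were higher and 705 lower in mRNA, 460 were higher and 627 lower in RPF and 6 were lower in TE. With library weights in limma 6 members were higher and 2 lower in mRNA (1454 and 1505 of all genes), and 5 members were higher in RPF (882 and 917 of all genes). With clone weights 1 member was higher and 2 lower in TE (416 and 380 of all genes). With chromosome medians removed 1 member was higher in RPF. Leaving out 1 clone at a time gave 1 to 4 members higher in mRNA (1 without R98S clone 11, R98S clone 13 or WT clone 29) and 0 to 4 in RPF (0 without R98S clone 11, R98S clone 13 or WT clone 36, 1 without WT clone 29 and 4 without R98S clone 35). Over all genes the counts were then 130 to 491 higher and 182 to 622 lower in mRNA, 65 to 506 and 164 to 642 in RPF, and 0 to 1 and 0 to 2 in TE, with the lowest counts of mRNA and RPF without R98S clone 11 or 13. The members' median log2 fold change ranged from 0.05 to 0.27 in mRNA, -0.10 to 0.19 in RPF and -0.12 to 0.03 in TE, with WT clone 29 left out at the low end of mRNA and RPF and WT clones 36 and 28 left out at the low and high end of TE. Some log2 changes that passed no test turned in direction. For *Heatr1* RPF was -0.094 with edgeR, -0.10 with DESeq2 and -0.0071 with library weights, *Ncl* RPF was 0.017 with library weights, and with clone weights TE was 0.088 for *Polr1a* and 0.27 for *Heatr1*. With 1 clone left out the ranges were -0.43 to 0.47 (*Heatr1* RPF), -0.49 to 0.18 (*Heatr1* TE), -0.43 to 0.32 (*Nat10* RPF), -0.71 to 0.36 (*Polr1a* RPF), -0.75 to 0.10 (*Polr1a* TE), -0.26 to 0.14 (*Ncl* RPF) and -0.064 to 0.051 (*Ebna1bp2* TE). The cause of these shifts was not tested. Without the pairing by clone (no replicate block) the TE fit called 0 members and 3 genes, and edgeR with the replicate block also 0 members and 3 genes, so the block changed no call among the members. With the length of the longest coding transcript in place of all exons, the members' median mRNA level per kb was 684 instead of 457. A shorter length raises the level per kb of any gene, and the all-gene median at these lengths is not given here. In the shallow mRNA library of WT clone 28, 1 read is worth 2.69 normalized counts, and TE of low genes is coarse there.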
